A study of Mus musculus with 228 samples.

Results

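The pentose phosphate pathway was followed through 8 genes, taken by their names in a table of 46331 named genes: G6pdx, Pgls, Pgd, Rpia, Rpe, Tkt, Taldo1 and H6pd. Each name had 1 row, and all 8 passed the filter on low counts in every tissue tested. C57BL/6N mice, which are inbred, were kept from 10 weeks of age for 42 days under 1 of 5 light regimes, and mRNA of 10 of their tissues was sequenced in 228 libraries. The tested diet was labelled as an antibiotics infusion, given in the study's design text as a cocktail of broad-spectrum antibiotics in the drinking water, with the agents not named in the sources used here. The mice it was set against, labelled chow, drank sterile water, and both got the same sterilised and irradiated feed. A cycle is named by its daily hours of light and then of darkness: LD0/24 is unbroken darkness, LD8/16 a short day, LD12/12 an even day, LD16/8 a long day and LD24/0 unbroken light. Liver had 6 libraries for each diet and cycle. Hypothalamus and colon epithelium had 3. The other tissues (inguinal white fat, thymus, spleen, mammary gland and the epithelium of ileum, jejunum and cecum) were of chow mice alone, with 3 libraries per cycle once 3 identical cecum columns were left out.

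The pathway runs beside glycolysis in the cytosol. Its oxidative branch takes glucose 6-phosphate to ribulose 5-phosphate and yields NADPH, the reducing power used to make fatty acids and sterols and to keep glutathione reduced. Its non-oxidative branch interconverts sugar phosphates, which links ribose 5-phosphate, needed for nucleotides, with the intermediates of glycolysis. G6pdx encodes glucose-6-phosphate dehydrogenase, the first and rate-limiting enzyme, Pgls the lactonase that follows it, and Pgd the second NADPH-forming dehydrogenase. Rpia isomerises and Rpe epimerises ribulose 5-phosphate, and Tkt (transketolase) and Taldo1 (transaldolase) move carbon units between sugars. H6pd encodes an enzyme in the lumen of the endoplasmic reticulum that carries out the first steps there, on a pool of NADPH of its own.

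The promoter windows of 4 of these genes are shown because G6pdx, Pgd, Tkt and Taldo1 fell with antibiotics in liver, as described further on, and because they hold the letters TGANNNNGC, a loose form of the antioxidant response element. That of H6pd, which did not pass the test there, stands beside them. Rpia fell in liver too, but its window, not shown, had 0 matches to these letters, as had those of Pgls, Rpe and H6pd. The 4 windows were picked by the match, and whether it goes with the fall was not tested. They come from RefSeq on GRCm38.p6, 250 bases before a gene's start to 50 after it, and a window was found for all 8 genes. They run 5′ to 3′ on the gene's strand, and capitals mark the matches to TGANNNNGC found on either strand. Matches to the D-box and the GC box, given after the sequences, stay in lower case. G6pdx lies at chrX:74428831-74429130 on the minus strand, the second start of Pgd at chr4:149166033-149166332 on the minus strand, Tkt at chr14:30548881-30549180 on the plus strand, Taldo1 at chr7:141391910-141392209 on the plus strand and H6pd at chr4:150003187-150003486 on the minus strand.
G6pdx: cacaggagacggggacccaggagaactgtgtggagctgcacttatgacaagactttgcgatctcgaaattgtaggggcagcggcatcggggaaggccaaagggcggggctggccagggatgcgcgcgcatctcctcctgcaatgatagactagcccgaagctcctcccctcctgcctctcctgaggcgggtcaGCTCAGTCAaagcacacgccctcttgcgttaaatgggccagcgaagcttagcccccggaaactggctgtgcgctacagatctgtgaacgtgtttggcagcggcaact
Pgd: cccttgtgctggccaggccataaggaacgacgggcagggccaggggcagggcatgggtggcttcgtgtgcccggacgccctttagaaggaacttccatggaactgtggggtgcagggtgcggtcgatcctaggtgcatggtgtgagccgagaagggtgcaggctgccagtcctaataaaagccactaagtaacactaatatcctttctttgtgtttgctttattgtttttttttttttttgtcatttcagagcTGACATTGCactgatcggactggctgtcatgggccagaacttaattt
Tkt: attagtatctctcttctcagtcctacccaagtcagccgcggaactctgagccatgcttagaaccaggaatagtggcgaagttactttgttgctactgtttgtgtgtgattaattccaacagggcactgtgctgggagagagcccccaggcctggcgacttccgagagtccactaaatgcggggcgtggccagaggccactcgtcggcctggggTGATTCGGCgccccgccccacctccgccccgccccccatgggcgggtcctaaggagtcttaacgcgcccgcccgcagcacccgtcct
Taldo1: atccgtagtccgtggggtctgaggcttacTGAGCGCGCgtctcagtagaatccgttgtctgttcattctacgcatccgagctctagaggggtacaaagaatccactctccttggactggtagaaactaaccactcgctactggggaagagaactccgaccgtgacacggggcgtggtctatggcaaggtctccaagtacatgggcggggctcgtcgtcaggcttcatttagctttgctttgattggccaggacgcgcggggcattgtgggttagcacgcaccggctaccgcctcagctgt
H6pd: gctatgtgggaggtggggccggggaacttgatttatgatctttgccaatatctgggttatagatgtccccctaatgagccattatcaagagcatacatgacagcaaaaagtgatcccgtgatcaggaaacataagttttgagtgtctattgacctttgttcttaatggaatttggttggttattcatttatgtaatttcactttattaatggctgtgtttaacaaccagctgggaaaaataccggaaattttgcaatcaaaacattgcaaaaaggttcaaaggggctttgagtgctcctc
The match begins 57 bases before the start in G6pdx, 3 after it in Pgd, 37 before it in Tkt and 221 before it in Taldo1. TGANNNNGC was in 41.3% of all 32851 promoter windows of this length, so 4 of 8 genes is close to that share. The share is per window, while a gene was counted when any of its windows matched. Its stricter form TGACNNNGC, which overlaps it, was in 12.4% of all windows, in that of G6pdx and in that of the second start of Pgd. The window at the first start of Pgd had 0 matches to either form, so Pgd was counted through its second start alone. The match there lies after the start, not before it, and use of that start in liver was not tested. The E-box CACGTG (7.15% of windows) and the sterol element TCACNCCAC (1.24%) had 0 matches in the 8 genes. The D-box TTATGNAA (3.38%) was in H6pd alone, and the GC box GGGCGG (35.7%) was in 7 of the 8 genes. Binding at these windows was not measured.

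Over all tissues a library held between 7.2 and 170 M counts (M, mega; median 87.5 M). Mitochondrially encoded genes took a median of 7.72% of a library and over 50% in 36 libraries, among them 14 of 15 in mammary gland and 15 of 30 in colon. In liver, 59 of 60 libraries were used, since antibiotics LD0/24 replicate 1 had 0 counts on the X chromosome, where G6pdx lies, and none from the mitochondrial genome. Colon antibiotics LD8/16 replicate 1 stood apart, with 8.92 M counts and G6pdx, Rpia, Rpe and H6pd at 0. Markers of each labelled tissue were highest in that tissue, or in jejunum and cecum for the lists shared by small and large intestine. The mammary list (keratins and milk proteins) summed to 130341 CPM of nuclear genes in mammary gland and 56272 in inguinal fat.

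With antibiotics, 5 of the 8 genes fell in liver and 0 rose. The members that fell were G6pdx and Pgd, the first and last enzymes of the oxidative branch, and Rpia, Tkt and Taldo1 of the non-oxidative branch. The size of the difference ran from 8.95-fold lower for G6pdx to 1.33-fold lower for Taldo1. Pgls, Rpe and H6pd did not pass the test. Each value is the difference averaged over the 5 cycles, from edgeR's quasi-likelihood test with Benjamini-Hochberg adjustment over all genes, and levels are given as CPM, counts scaled to library size within the tissue. Over all 19234 genes tested, 18% were lower and 13.4% higher. The balance turned under other settings, to 13.5% lower and 16.9% higher by limma-voom, and to 16.6% lower and 19.4% higher without the 5 livers of highest mitochondrial share. Mitochondrially encoded counts, a sign of RNA quality, took at most 7.62% of any antibiotics liver, while these 5 chow livers had 30.4 to 62.6%. Without them 6 of the 8 genes fell: G6pdx was at -2.99, Pgd at -1.17, Rpia at -0.84, Tkt at -0.69 and Taldo1 at -0.42 on the log2 scale, and H6pd joined them, at -0.28 (edgeR adjusted p = 0.00503). The members' median log2 fold change was -0.54, against -0.01 for all genes.

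G6pdx had 3.85, 4.53, 6.61, 6.85 and 8 CPM in the antibiotics livers of LD0/24, against 15.3 to 106 CPM (median 49.3) in the chow livers. In LD8/16 it had 3.83 to 14.2 CPM (median 7.48) with antibiotics and 26.3 to 80.3 CPM (median 57.8) on chow. Neither cycle had any overlap between the diets. LD12/12 gave 4.25 to 5.66 CPM (median 4.69) with antibiotics and 6.92 to 81.5 CPM (median 28.6) on chow, and LD16/8 gave 3.16 to 6.51 CPM (median 5.27) with antibiotics and 45 to 137 CPM (median 53.6) on chow. In LD24/0 the range was 3.09 to 12.6 CPM (median 4.56) with antibiotics and 3.96 to 123 CPM (median 27.7) on chow. The groups were apart in 4 of 5 cycles and overlapped under constant light, through 1 chow liver. Over all cycles G6pdx averaged 5.95 ± 2.74 CPM in antibiotics livers (SD, n = 29) and 53.7 ± 34.6 CPM in chow livers (SD, n = 30). Its log2 fold change was -3.16 ± 0.24 (SE, edgeR adjusted p = 3.81e-15), and 29 of 29 antibiotics livers lay below the chow mean of their cycle. Among the chow livers, 27 of 30 lay above the highest antibiotics liver. The other 3 were LD12/12 replicates 3 and 4, at 6.92 and 11.2 CPM, and LD24/0 replicate 1, at 3.96 CPM. G6pd2, the autosomal copy of G6pdx, had at most 10 counts in any library.

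Pgd, which makes the second NADPH of the branch, had 25 to 88.3 CPM in antibiotics livers (median 42.3) and 47 to 156 CPM in chow livers (median 101). Its log2 fold change was -1.15 ± 0.10 (SE, edgeR adjusted p = 7.27e-13), or 2.21-fold lower, with 29 of 29 antibiotics livers below the chow mean of their cycle. The diets overlapped over all livers and were apart in 3 of 5 cycles. Pgls, the enzyme between these dehydrogenases, had 32.3 to 53.8 CPM with antibiotics (median 41.8) and 29 to 61.7 CPM on chow (median 47.4), and its log2 fold change of -0.14 ± 0.06 did not pass (edgeR adjusted p = 0.0669). H6pd had 191 to 460 CPM with antibiotics (median 263) and 214 to 505 CPM on chow (median 301). Its log2 fold change was -0.21 ± 0.09 (edgeR adjusted p = 0.0558). Both sit near the threshold, and DESeq2 gave them adjusted p-values of 0.0419 (Pgls) and 0.0331 (H6pd).

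In the non-oxidative branch, Rpia had 3.36 to 14.2 CPM in antibiotics livers (median 5.26) and 5.8 to 23 CPM in chow livers (median 11.6). It was 2.03-fold lower with antibiotics, a log2 fold change of -1.02 ± 0.12 (edgeR adjusted p = 3.68e-09). Tkt had 88.1 to 196 CPM with antibiotics (median 121) and 136 to 262 CPM on chow (median 207), with a log2 fold change of -0.68 ± 0.06 (edgeR adjusted p = 3.14e-12). All 29 antibiotics livers were below the chow mean of their cycle for Tkt, and 27 of 29 were for Rpia. Taldo1 had 62.5 to 115 CPM with antibiotics (median 88.6) and 82.2 to 158 CPM on chow (median 116), a log2 fold change of -0.41 ± 0.06 (edgeR adjusted p = 6.7e-08). Rpe, the epimerase, had medians of 24.6 CPM with antibiotics and 28 CPM on chow. Its log2 fold change of -0.02 had a 95% interval of -0.22 to 0.17 and an adjusted p of 0.877 by edgeR.

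**Figure D1:**
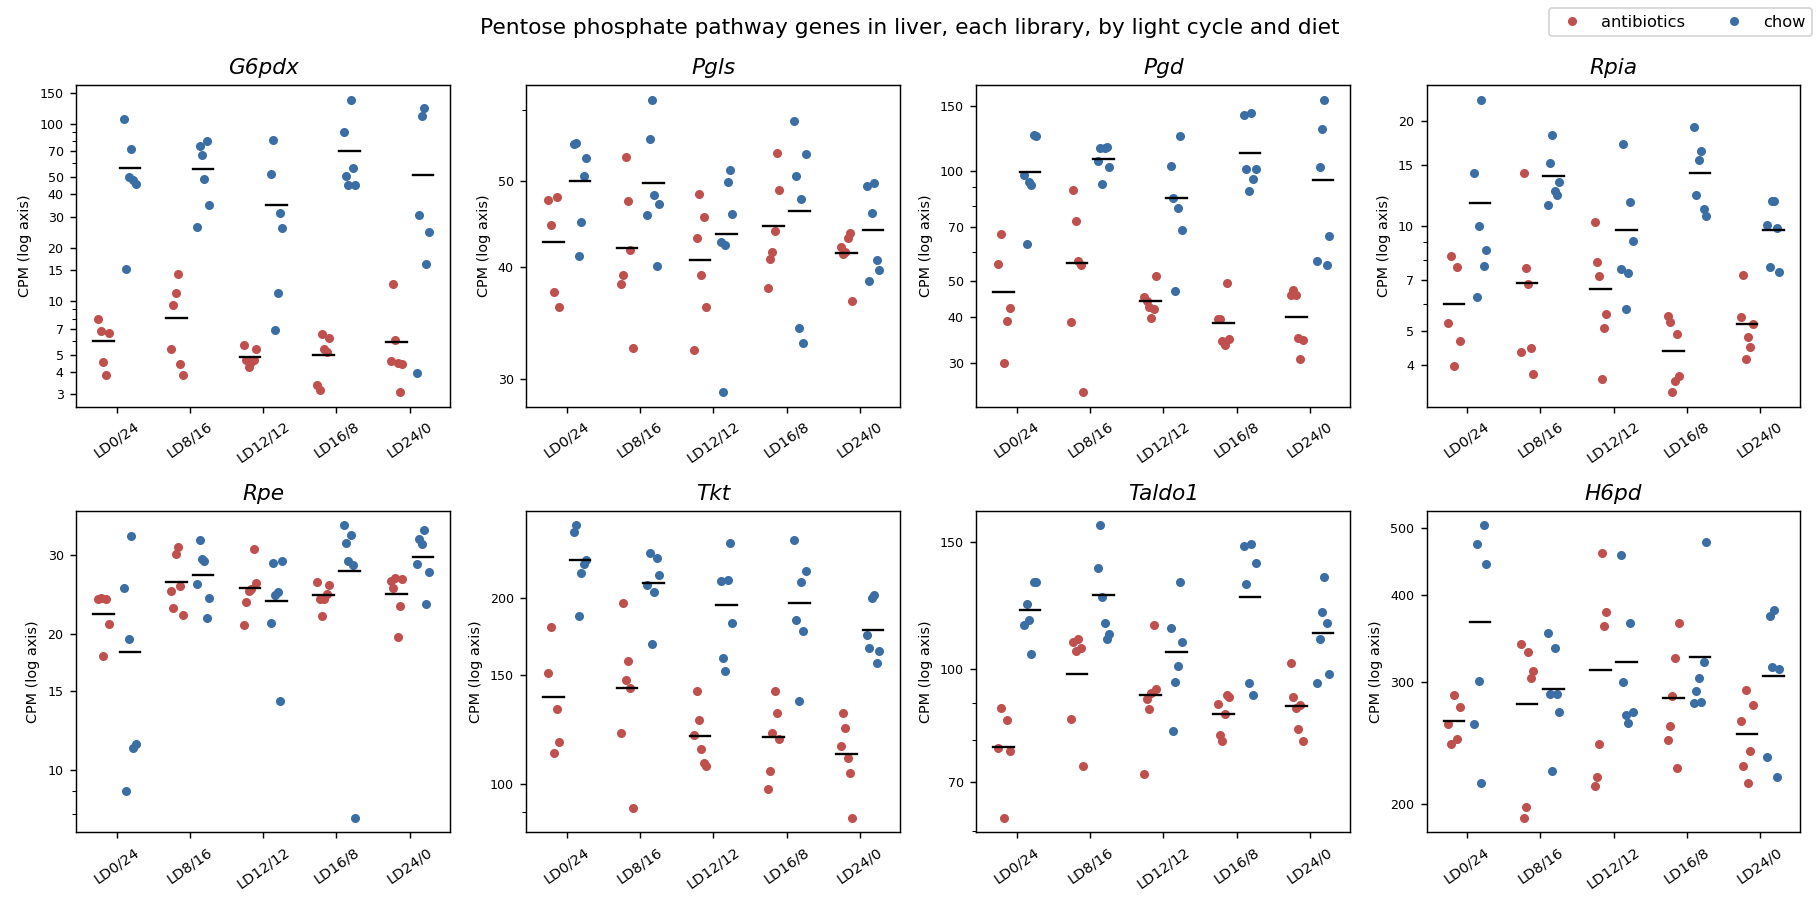
CPM (log axis) of each gene in each liver library by light cycle, antibiotics left and chow right; bars are group means of 5 or 6 libraries. G6pdx dots of antibiotics livers stay at or under 14.2 CPM, while 27 of 30 chow livers lie above that, and the dots of Rpe, Pgls and H6pd overlap in every cycle.

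Within single cycles, 3 to 5 of the 8 genes fell with antibiotics. Under LD0/24, 5 were called, against 6.2% of all genes lower. Counts were 4 under LD8/16 (1.61% of genes lower), 3 under LD12/12 (1.42%), 5 under LD16/8 (1.85%) and 3 under LD24/0 (0.941%). G6pdx, Pgd and Tkt were called in each cycle. G6pdx had its smallest log2 fold change under LD8/16, -2.77 ± 0.52, and its largest under LD16/8, -3.83 ± 0.55 (edgeR adjusted p = 0.000963 and 5.23e-06). Rpia was called under LD0/24, LD8/16 and LD16/8, and Taldo1 under LD0/24 and LD16/8. The LD0/24 value of Rpia, -0.96, was -0.42 without the 5 chow livers above 30% mitochondrially encoded counts (adjusted p = 0.308), -0.62 with that share as a covariate (0.0868) and -0.66 without chow replicate 4 alone (0.122). Its call there was also lost without antibiotics replicate 2, 4 or 6 (adjusted p of 0.0549 to 0.0769), and under LD8/16 without chow replicate 2 or 3 or antibiotics replicate 1, 4, 5 or 6 (0.0568 to 0.103). Tkt lost its LD8/16 call without chow replicate 2 or antibiotics replicate 1 or 6 (0.0502 to 0.0809), and Pgd its own without antibiotics replicate 6 (0.0602) and, under LD12/12, without chow replicate 1 or 5 (0.0525 and 0.0916). A difference in the diet effect among cycles was not found for any of the 8: by edgeR 0 were called (0 at an unadjusted p under 0.05, 0 by limma-voom and 0 by DESeq2), and 0% of all genes were. For the diet difference within LD8/16, 1 member was called without antibiotics replicate 6 (236 of all genes called). There were 2 without chow replicate 2 (365 genes) or antibiotics replicate 1 (327 genes), against 482 genes in the main fit.

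Markers of other cells moved with diet in the same livers. All 10 neutrophil genes were lower with antibiotics. Their summed level ran from 5.41 to 78.5 CPM in antibiotics livers (median 13.3) and 9.79 to 1369 CPM in chow livers (median 28.3). All 8 red blood cell genes were lower too (284 to 1006 CPM, median 489, with antibiotics, 481 to 4261 CPM, median 1270, on chow). So were 8 of 10 cell cycle genes (39.8 to 82.1 CPM, median 52.3, with antibiotics, 42.4 to 145 CPM, median 71.3, on chow). Of the Kupffer cell and macrophage list 4 of 10 were lower and 0 of 10 higher. Its summed level was 197 to 602 CPM with antibiotics (median 400) and 211 to 1321 CPM on chow (median 394). Of 8 hepatocyte genes 1 was higher and 1 lower (110336 to 150764 CPM, median 127310, with antibiotics, 111945 to 221196 CPM, median 167639, on chow). In the other direction, 3 of 7 T cell genes were higher and 0 lower (2.42 to 10.1 CPM, median 4.81, with antibiotics, 1.76 to 8.47 CPM, median 3.09, on chow). Of 5 biliary genes 2 were higher and 0 lower (32.2 to 143 CPM, median 56.6, with antibiotics, 21.5 to 106 CPM, median 43.2, on chow). No marker was at 0 in every liver, but the neutrophil genes Mpo and Camp were at 0 in 27 and 24 of 29 antibiotics livers, and in 4 and 2 of 30 chow livers. Their part in the fall of the pathway genes was not tested, and in bulk tissue fewer cells of a type and less RNA per cell cannot be told apart.

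Relative to each other the genes did not keep their proportions. The log2 ratio of G6pdx to Pgd within a library averaged -2.86 ± 0.40 in antibiotics livers (SD, n = 29) and -1.19 ± 0.88 in chow livers (SD, n = 30), a difference of -1.67. Ratios of G6pdx to the other 6 genes were lower with antibiotics by more, up to -2.84 against Rpe. All 7 ratios had an adjusted p of 1e-05 in a two-sided permutation test within cycles, the smallest that 100000 resamples can give. Per kilobase of exon, G6pdx ranked 7 of the 8 genes in antibiotics livers, at 1.93 ± 0.89 CPM per kb, and 4 in chow livers, at 17.4 ± 11.2 CPM per kb. H6pd ranked first in both, at 53.3 ± 11.8 CPM per kb with antibiotics and 61.6 ± 15.3 CPM per kb on chow, and Rpia last, at 1.09 ± 0.436 and 2.21 ± 0.77 CPM per kb in antibiotics and chow livers. Of the summed CPM per kb of both glucose 6-phosphate dehydrogenases, G6pdx and H6pd, the share of G6pdx was 3.67% ± 1.96 in antibiotics livers (SD, n = 29) and 21.2% ± 11.9 in chow livers (SD, n = 30).

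Lists of genes around the pathway were read in the same liver fit, beside the 18% of all genes lower and 13.4% higher. Of 12 genes listed for fatty acid and sterol synthesis 10 fell and 0 rose, with a median log2 fold change of -1.25. The list holds the regulators Mlxipl, Thrsp and Srebf1 beside enzymes. Mlxipl and Thrsp were among those that fell, and Srebf1 did not pass. Fasn, the fatty acid synthase, averaged 788 ± 521 CPM in antibiotics livers and 2722 ± 1001 CPM in chow livers (log2 fold change -1.79 ± 0.18, edgeR adjusted p = 3.66e-11). Scd1, a fatty acid desaturase, had a log2 fold change of -1.75 ± 0.17, and Dhcr7, the last step of cholesterol synthesis, one of -1.18 ± 0.10. Among 13 other sources of NADPH, 2 fell and 1 rose (median -0.00). Malic enzyme Me1 averaged 219 ± 91.2 CPM with antibiotics and 411 ± 173 CPM on chow, a log2 fold change of -0.91 ± 0.14 (edgeR adjusted p = 7.74e-07). The folate enzyme Aldh1l1 fell by 0.55 on the log2 scale and the mitochondrial NAD kinase Nadk2 rose by 0.24.

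Of 22 neighbouring sugar phosphate enzymes that could be tested, out of 25 listed, 7 fell and 2 rose (median -0.09). Gpi1, which draws glucose 6-phosphate into glycolysis, fell by 0.63 and the aldolase Aldoa by 0.53 on the log2 scale, while Rgn, a lactonase that acts on sugar acids, rose by 0.40. In glutathione and thioredoxin reduction, which draws on NADPH, 2 of 9 genes fell and 1 rose (median -0.11): Gpx4 and Glrx fell by 0.43 and 0.50, and Gpx1 rose by 0.52. Of 12 tested targets of NRF2, the factor that binds antioxidant response elements, 7 fell and 1 rose (median -0.43). Srxn1 (sulfiredoxin), Ugdh (which makes glucuronic acid precursor) and Gstm1 (a glutathione transferase) had log2 fold changes of -0.53 ± 0.06, -0.74 ± 0.09 and -0.78 ± 0.10. A list of 6 genes was drawn up for the handling of glucose 6-phosphate and NADPH in the endoplasmic reticulum, where H6pd acts, although one of them, Pgp, encodes a cytosolic phosphatase of other substrates. In it G6pc (glucose-6-phosphatase) rose, at 233 ± 147 CPM with antibiotics and 127 ± 142 CPM on chow (log2 fold change 1.00 ± 0.24, edgeR adjusted p = 0.000914), and G6pc3 fell by 0.68. Pgp, at -0.16 ± 0.09, did not pass.

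**Figure D2:**
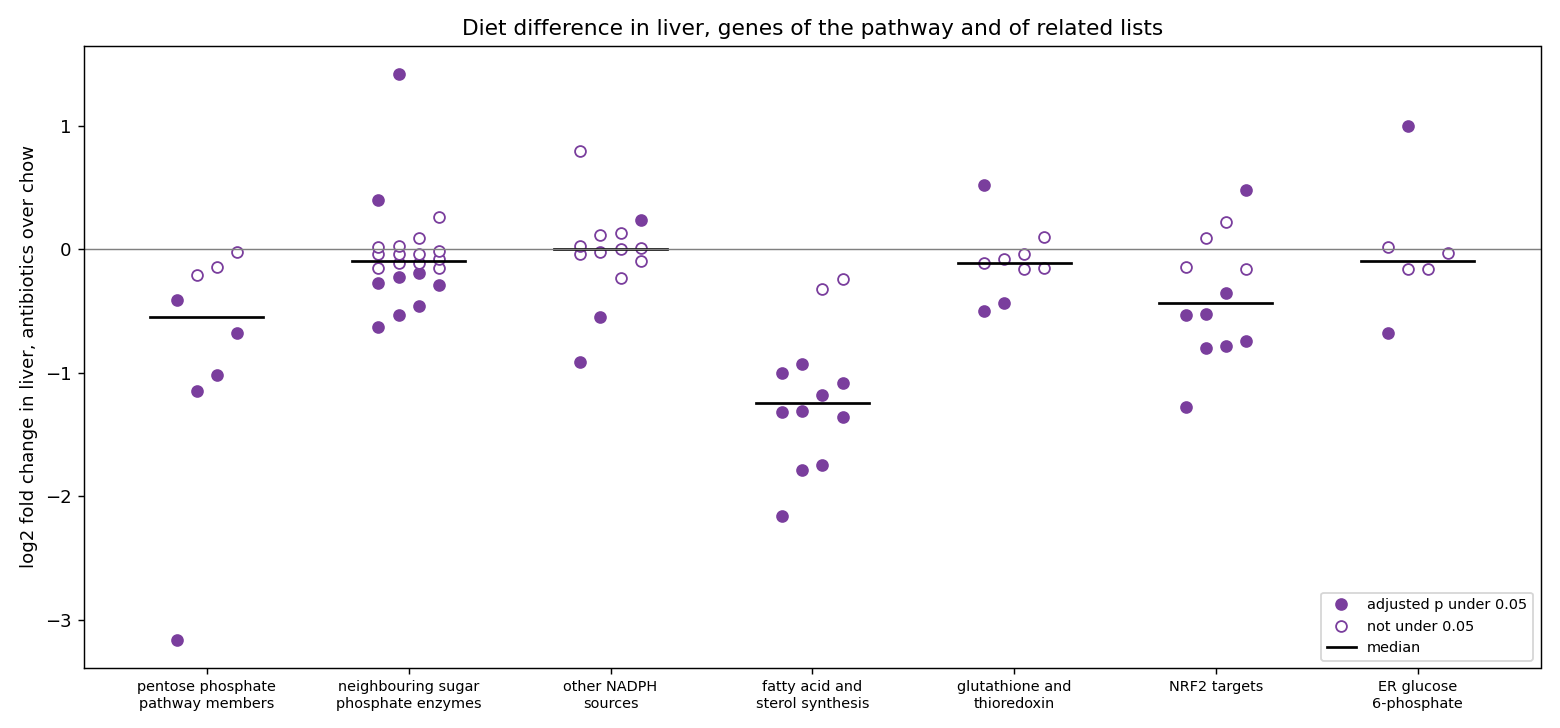
Log2 fold change in liver, antibiotics over chow (vertical axis), for each tested gene of 7 lists (columns); filled dots have an adjusted p under 0.05 and bars are list medians. G6pdx is the lowest dot shown, at -3.16, and 10 of 12 fatty acid and sterol synthesis genes are filled below 0.

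Light cycle gave 0 calls among the 8 genes in liver. Over the 5 chow groups by edgeR, 0.296% of all genes were called and 0 members (1 at an unadjusted p under 0.05, 0 by limma-voom, 0 by DESeq2). That one was Rpe, with a p of 0.0217 and an adjusted p of 0.39. In chow livers of LD0/24, Rpe had 9 to 33 CPM (median 15.4), against 23.3 to 34 CPM (median 30.3) under LD24/0. The 2 highest LD0/24 livers for Rpe, replicates 1 and 4 at 25.4 and 33 CPM, had 30.4% and 58.3% mitochondrially encoded counts. Without the 5 chow livers above 30%, the adjusted p of Rpe was 0.00325 and 1098 genes were called, against 57 with them, and the antibiotics livers of LD0/24 were then 0.82 higher in Rpe than the chow livers on the log2 scale (edgeR adjusted p = 0.00597). Over the 5 antibiotics groups, 0% of all genes and 0 members were called by edgeR (0 members at an unadjusted p under 0.05, 0 by limma-voom, 0 by DESeq2).

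Pairs of the genes were also set against each other over livers of 1 diet, on log2(CPM + 0.5) less the mean of the cycle. Of 56 correlations, 28 in each diet, 22 had an adjusted permutation p under 0.05, and 19 of these were positive. In antibiotics livers 12 of 28 passed, all with an absolute r of at least 0.53, a size that 9.8% of all pairs among the 12590 genes with a mean of at least 1 CPM reached there. In chow livers 10 of 28 (35.7%) passed, also from 0.53 on, and 28.1% of all gene pairs reached it, so the chow count is near that of genes in general. The median absolute r of the 28 pairs was 0.42 in antibiotics livers, against 0.23 for all gene pairs, and 0.31 in chow livers, against 0.34 for all. These libraries share their depth and scaling, and in chow livers the mitochondrial share varied as well. G6pdx and Pgd had a Pearson r of 0.59 in antibiotics livers (rho 0.59, adjusted p = 0.0254 and 0.0199, n = 29). They had an r of 0.76 in chow livers (rho 0.70, adjusted p = 0.0028 and 0.0111, n = 30). Without the 2 livers farthest from the median G6pdx, r was 0.64 with antibiotics and 0.69 on chow. Pgd and Tkt had an r of 0.77 with antibiotics (rho 0.63, adjusted p = 0.0028 and 0.0129, n = 29) and 0.55 on chow (rho 0.56, adjusted p = 0.00784 and 0.0164, n = 30). Without the 2 livers farthest from the median Pgd, r was 0.59 with antibiotics and 0.47 on chow. Pgls, which did not pass the diet test, followed Taldo1, with an r of 0.65 in antibiotics livers (rho 0.59, adjusted p = 0.00765 and 0.0134) and 0.73 in chow livers (rho 0.63, adjusted p = 0.00403 and 0.0111), and of 0.57 and 0.62 without the 2 livers farthest from the median Pgls in antibiotics and chow livers.

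Of the 22 pairs that passed, the 3 negative ones held H6pd with Rpia or Rpe, the enzymes that act on ribulose 5-phosphate. Rpia and H6pd had an r of -0.78 in antibiotics livers (rho -0.76, adjusted p = 0.00056 and 0.00112, n = 29). In chow livers r was -0.55 (rho -0.49, adjusted p = 0.0285 and 0.0551, n = 30), so the rank correlation there did not pass. Without the 2 livers farthest from the median Rpia, r was -0.71 with antibiotics and -0.47 on chow. For Rpe and H6pd, r was 0.26 in antibiotics livers (rho 0.26, adjusted p = 0.36 and 0.307) and -0.66 in chow livers (rho -0.55, adjusted p = 0.00924 and 0.0199), and -0.57 in chow livers without the 2 farthest in Rpe. Rpe and Taldo1 had an r of 0.72 in antibiotics livers (rho 0.63, adjusted p = 0.0028 and 0.0111; 0.69 without the 2 farthest in Rpe) and -0.25 in chow livers (rho -0.13, adjusted p = 0.402 and 0.614). These differences between diets were not tested. No source used here gives the hour of sampling. With the log2 ratio of Dbp to Arntl, clock genes of opposite phase, also removed, 25 of 56 pairs passed.

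**Figure D3:**
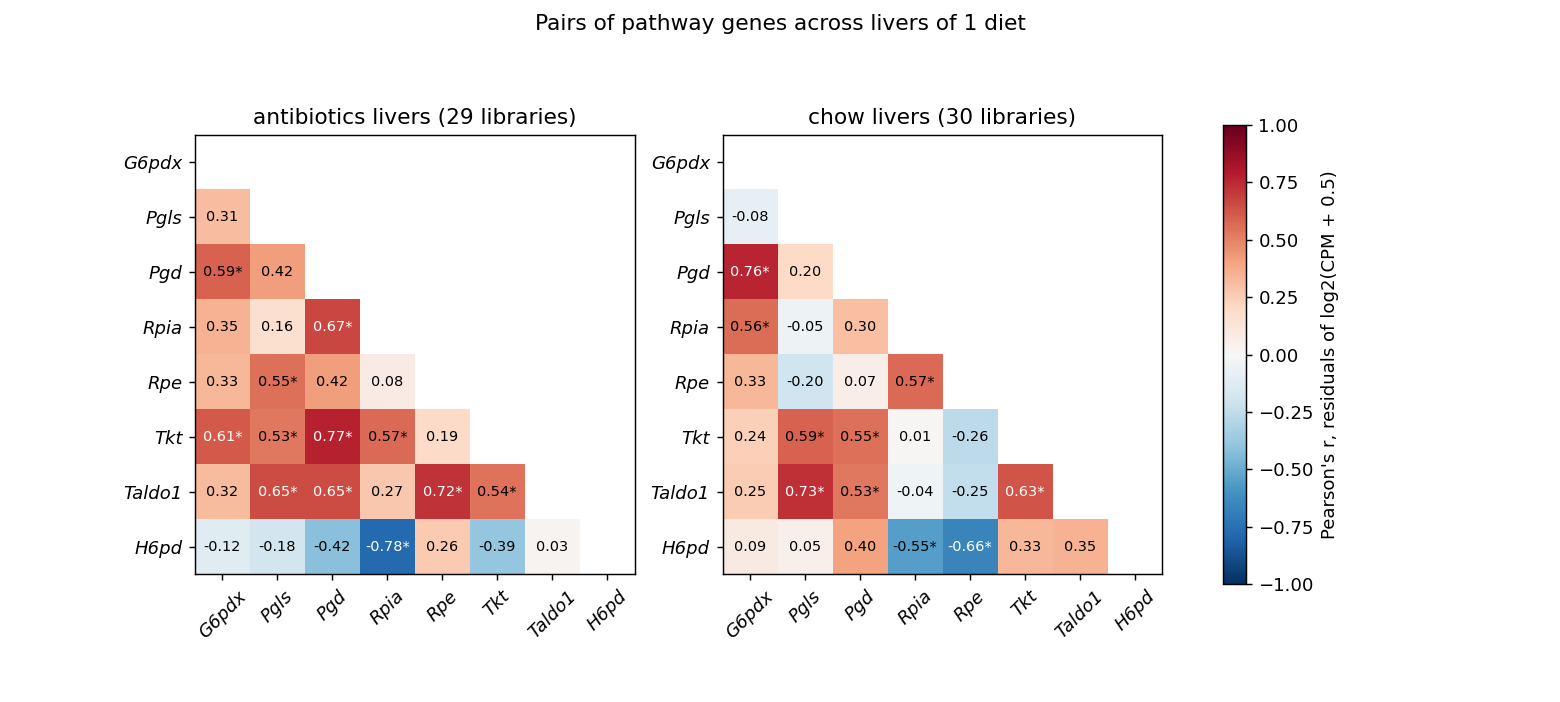
Pearson's r (colour and number) between pairs of genes over 29 antibiotics livers (left) and 30 chow livers (right), after the mean of each group was subtracted; stars mark an adjusted permutation p under 0.05. G6pdx with Pgd is positive in both panels (0.59 and 0.76), and Rpia with H6pd is negative in both (-0.78 and -0.55).

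Measured over all genes with a mean of at least 1 CPM, the closest to G6pdx across the 59 livers were Sult4a1 (r 0.77), Pdzk1ip1 (0.76), Gm6166 (0.76), Mki67 (0.75) and Gm28548 (0.74). Pgd was at rank 13, with an r of 0.67. Mki67, a marker of dividing cells, was among the 8 cell cycle genes that fell: it averaged 2.61 ± 0.947 CPM in antibiotics livers and 9.05 ± 5.36 CPM in chow livers. The closest to Taldo1 were Gm2451 (0.78), Ebp (0.76), Serpinc1 (0.76), Bscl2 (0.75) and Smdt1 (0.73), with Pgls at rank 17 (0.70). These correlations are over the same libraries, share their depth and scaling, and are a description without a test.

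In hypothalamus the diet differences of the 8 genes lay between -0.24 and 0.31 on the log2 scale. By edgeR, 2 of the 8 genes rose and 1 fell with antibiotics, against 5.36% of 24557 genes higher and 7.94% lower. A pair of chow libraries had the highest mitochondrial shares, LD12/12 replicate 3 at 18.9% and LD16/8 replicate 1 at 13.7%, with the other 13 and all antibiotics libraries lower. Without the first, 5 of the 8 were called, and 10.4% of all genes were higher and 11.9% lower. Without the second, 5 were called again, with 9.7% of genes higher and 9.79% lower. With the share as a covariate 5 were called, with 16.7% higher and 17.3% lower, so the count of members and the background moved together. Taldo1 had 87.4 to 118 CPM with antibiotics (median 98.9) and 71.8 to 109 CPM on chow (median 84.4), a log2 fold change of 0.25 ± 0.06 (adjusted p = 0.0124). Pgls had 27.7 to 36.3 CPM with antibiotics (median 29.7) and 19.1 to 42.7 CPM on chow (median 23.1), a log2 fold change of 0.31 ± 0.09 (adjusted p = 0.0263). For both, 15 of 15 antibiotics libraries were above the chow mean of their cycle while the ranges overlapped. Rpe had 17 to 25 CPM with antibiotics (median 21.5) and 23.6 to 29.1 CPM on chow (median 26.1), a log2 fold change of -0.24 ± 0.05 (adjusted p = 0.00309), with 12 of 15 antibiotics libraries below the lowest chow library. G6pdx had medians of 42.8 CPM with antibiotics and 42.7 CPM on chow and a 95% interval of its log2 fold change of -0.09 to 0.14. Of 9 neutrophil genes tested there, 9 were lower with antibiotics (summed level 0.553 to 6.51 CPM with antibiotics, 3.42 to 27.2 CPM on chow), and of 8 red blood cell genes 5 were lower (558 to 2089 CPM with antibiotics, 759 to 10098 CPM on chow). Hepatocyte genes summed to 4.22 to 1350 CPM with antibiotics and 2.04 to 20.4 CPM on chow, with 3 of 6 tested higher. Their part in the differences was not tested.

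Colon epithelium had 3 of the 8 genes lower with antibiotics and 0 higher by edgeR, against 2.07% of 23717 genes lower and 1.14% higher. Tkt had 65.8 to 199 CPM with antibiotics (median 114) and 98.8 to 428 CPM on chow (median 230), a log2 fold change of -0.91 ± 0.19 (adjusted p = 0.00723). Taldo1 had 66 to 276 CPM with antibiotics (median 110) and 93 to 462 CPM on chow (median 190), a log2 fold change of -0.78 ± 0.18 (adjusted p = 0.0162). Pgd had 33.9 to 111 CPM with antibiotics (median 73.2) and 50.4 to 249 CPM on chow (median 108), a log2 fold change of -0.71 ± 0.19 (adjusted p = 0.0381), a call that was lost in 22 of the 30 fits that left out 1 library (adjusted p of 0.0502 to 0.106) and with a replicate block (0.0504). The ranges of both diets overlapped for all 3 genes, with 14, 12 and 11 of 15 antibiotics libraries below the chow mean of their cycle for Tkt, Taldo1 and Pgd. Within single colon cycles 0 of the 8 were called, with at most 2 of 23717 genes called. The members' median log2 fold change ran from -0.10 under LD0/24 to -1.35 under LD8/16. Under LD0/24, Taldo1 had 270, 276 and 118 CPM with antibiotics and 192, 190 and 93 CPM on chow. Under LD12/12 it had 135, 179 and 66 CPM with antibiotics and 462, 429 and 378 CPM on chow. G6pdx had medians of 17 CPM with antibiotics and 25 CPM on chow, and its log2 fold change of -0.59 ± 0.32 did not pass (adjusted p = 0.456). Without the thin antibiotics library of LD8/16, 4 of the 8 passed: H6pd joined them, at -0.79 (adjusted p = 0.0193), and Tkt, Taldo1 and Pgd had adjusted p-values of 0.00217, 0.00677 and 0.0137. In that fit 3.25% of all genes were lower and 2.3% higher. With no filter on low counts, 0 of the 8 passed (adjusted p of 0.0546 for Tkt, 0.123 for Taldo1 and 0.208 for Pgd). Of colon marker lists, 1 of 5 biliary genes, most of them general epithelial markers, (80.3 to 2313 CPM with antibiotics, 337 to 2699 CPM on chow) and 1 of 7 tested red blood cell genes were lower, and 0 of 8 tested neutrophil genes passed the test. Of 5 B cell genes 0 passed, with a median log2 fold change of 2.46. The B cell genes summed to 1.87 to 333 CPM with antibiotics (median 32.8) and 0.339 to 116 CPM on chow (median 2.16). Their part in the differences was not tested.

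**Figure D4:**
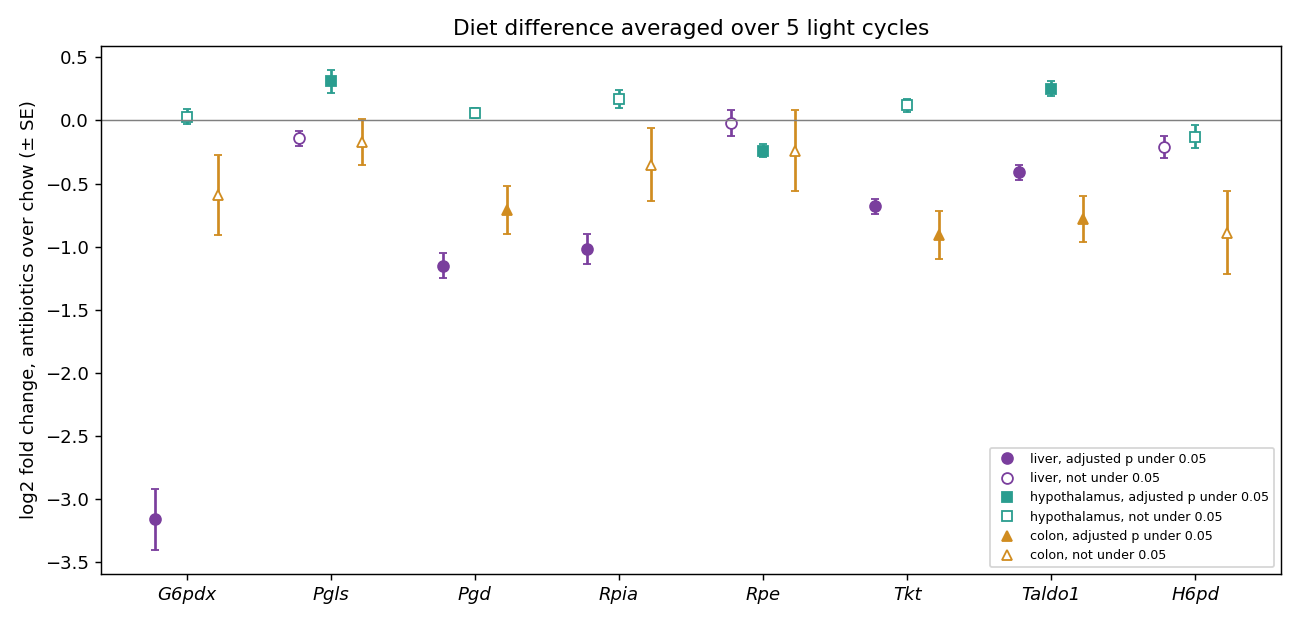
Log2 fold change of each gene, antibiotics over chow, averaged over 5 cycles (vertical axis, ± SE) in liver (circles), hypothalamus (squares) and colon (triangles); filled symbols have an adjusted p under 0.05. G6pdx is at -3.16 in liver, 0.03 in hypothalamus and -0.59 in colon, and Tkt at -0.68 in liver, 0.12 in hypothalamus and -0.91 in colon.

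Tests of the difference between tissues followed. In 1 edgeR fit over the 3 tissues, the difference in liver was more negative than in hypothalamus for 6 of the 8 genes, against 4.01% of 28669 genes that differed in either direction. G6pdx differed by -3.19 ± 0.34 on the log2 scale (adjusted p = 1.96e-11), Pgd by -1.22 ± 0.17, Rpia by -1.18 ± 0.22, Tkt by -0.81 ± 0.14, Taldo1 by -0.67 ± 0.13 and Pgls by -0.46 ± 0.13. Between liver and colon 4 of 8 differed, against 11.6% of genes. G6pdx and Rpia were lower in liver relative to colon, by -2.57 ± 0.34 (adjusted p = 6.42e-09) and -0.66 ± 0.22 (adjusted p = 0.0345). Taldo1 and H6pd were the other way round, at 0.38 ± 0.13 (adjusted p = 0.0451) and 0.67 ± 0.22 (adjusted p = 0.0269). With no filter on low counts, Rpia (adjusted p = 0.0588) and Taldo1 (0.0581) were no longer called. Tkt did not pass between liver and colon (0.24 ± 0.14, adjusted p = 0.347).

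The related lists also had other counts in these tissues. Of the 12 fatty acid and sterol synthesis genes, 3 rose and 0 fell with antibiotics in hypothalamus (median log2 fold change 0.10), and 0 rose and 2 fell in colon (median -0.22). Of the NRF2 targets, 0 rose and 3 fell among 12 tested in hypothalamus (median -0.12), and 0 rose and 3 fell among 13 in colon (median -0.65). Medians over all genes were 0.02 in hypothalamus and -0.02 in colon.

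On chow the 8 genes had tissue profiles of their own. Levels across tissues are given as CPM of nuclear genes, scaled over all chow libraries, in 30 livers and 15 libraries of each other tissue. Inguinal fat was highest for 6 of the 8 genes, spleen for Rpia and liver for H6pd, and hypothalamus was lowest for 7 and thymus for G6pdx. The highest tissue depended on the settings for some genes. It was jejunum for Taldo1 with mitochondrial counts in the totals, and thymus for Pgls with plain library totals as the scale. With LD12/12 libraries alone it was colon for Pgls, inguinal fat for Rpia and jejunum for Taldo1. G6pdx averaged 294 ± 152 in inguinal fat (SD, n = 15), 154 ± 64.6 in mammary gland and 110 ± 70.4 in liver. It was then 98 ± 22.8 in cecum, 69.5 ± 31.7 in jejunum, 54.5 ± 29.2 in ileum, 41.9 ± 13.9 in colon, 39.3 ± 39.4 in spleen, 34.2 ± 4.59 in hypothalamus and 27.7 ± 4.38 in thymus. In that order, fat over mammary gland, cecum over jejunum and hypothalamus over thymus differed beyond their spread (permutation test, adjusted p = 0.00667, 0.0156 and 0.0035), and the other 6 neighbours did not pass. The first of these rests on mammary libraries of which 14 of 15 were over 50% mitochondrially encoded. Pgd averaged 820 ± 409 in inguinal fat, 495 ± 73.5 in cecum, 357 ± 84.3 in jejunum, 234 ± 104 in ileum, 204 ± 56.9 in liver, 183 ± 85.6 in colon, 152 ± 97.6 in mammary gland, 87.3 ± 58.2 in spleen, 56 ± 10.5 in thymus and 40.6 ± 2.71 in hypothalamus. Its fat and cecum values were not told apart (adjusted p = 0.0683), and cecum stood above jejunum (adjusted p = 0.000792) and jejunum above ileum (adjusted p = 0.00679).

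Tkt stood out in inguinal fat, at 3744 ± 2583, which was 5.98 times its level in jejunum (626 ± 138, adjusted p = 8e-05) and 21.3 times that in hypothalamus (176 ± 17.1). Its single fat libraries ran from 1333 to 12030 and every one was above the highest jejunum library (785). Ileum, mammary gland, cecum, liver and colon lay between 545 and 356 for Tkt with no neighbours told apart. Taldo1, which acts beside it, was spread more evenly: it averaged 660 ± 180 in inguinal fat, 649 ± 188 in jejunum, 596 ± 337 in ileum and 524 ± 142 in cecum, with no neighbours told apart. Only neighbours in this order were tested. Its lowest levels were 149 ± 16.1 in thymus and 68.8 ± 9.32 in hypothalamus (adjusted p = 8e-05 between them).

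H6pd had the widest span, from 661 ± 176 in liver to 5.86 ± 0.981 in hypothalamus, or 113-fold. It was 2.79 times as high in liver as in inguinal fat (237 ± 77), and fat was above thymus (89 ± 11.4) and thymus above spleen (34.5 ± 7.81), each with an adjusted p of 8e-05. Colon had 26 ± 8.36, and ileum, jejunum, mammary gland and cecum 14.7, 13.6, 11.8 and 10.3. Rpia, Rpe and Pgls varied least, 5.88-, 5.25- and 5.06-fold between the highest and the lowest tissue. Rpia averaged 56 ± 13.5 in spleen and 45.2 ± 13.9 in fat (adjusted p = 0.0547), Rpe 109 ± 23.8 in fat and 89 ± 21.2 in jejunum (adjusted p = 0.0683), and Pgls 101 ± 33.8 in fat and 95.5 ± 15.7 in liver (adjusted p = 0.826). In all, 23 of 72 neighbouring pairs differed. Without libraries over 50% mitochondrially encoded, 19 did, and the highest tissue of Pgls and Taldo1 was then mammary gland, of which 1 library remained.

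**Figure D5:**
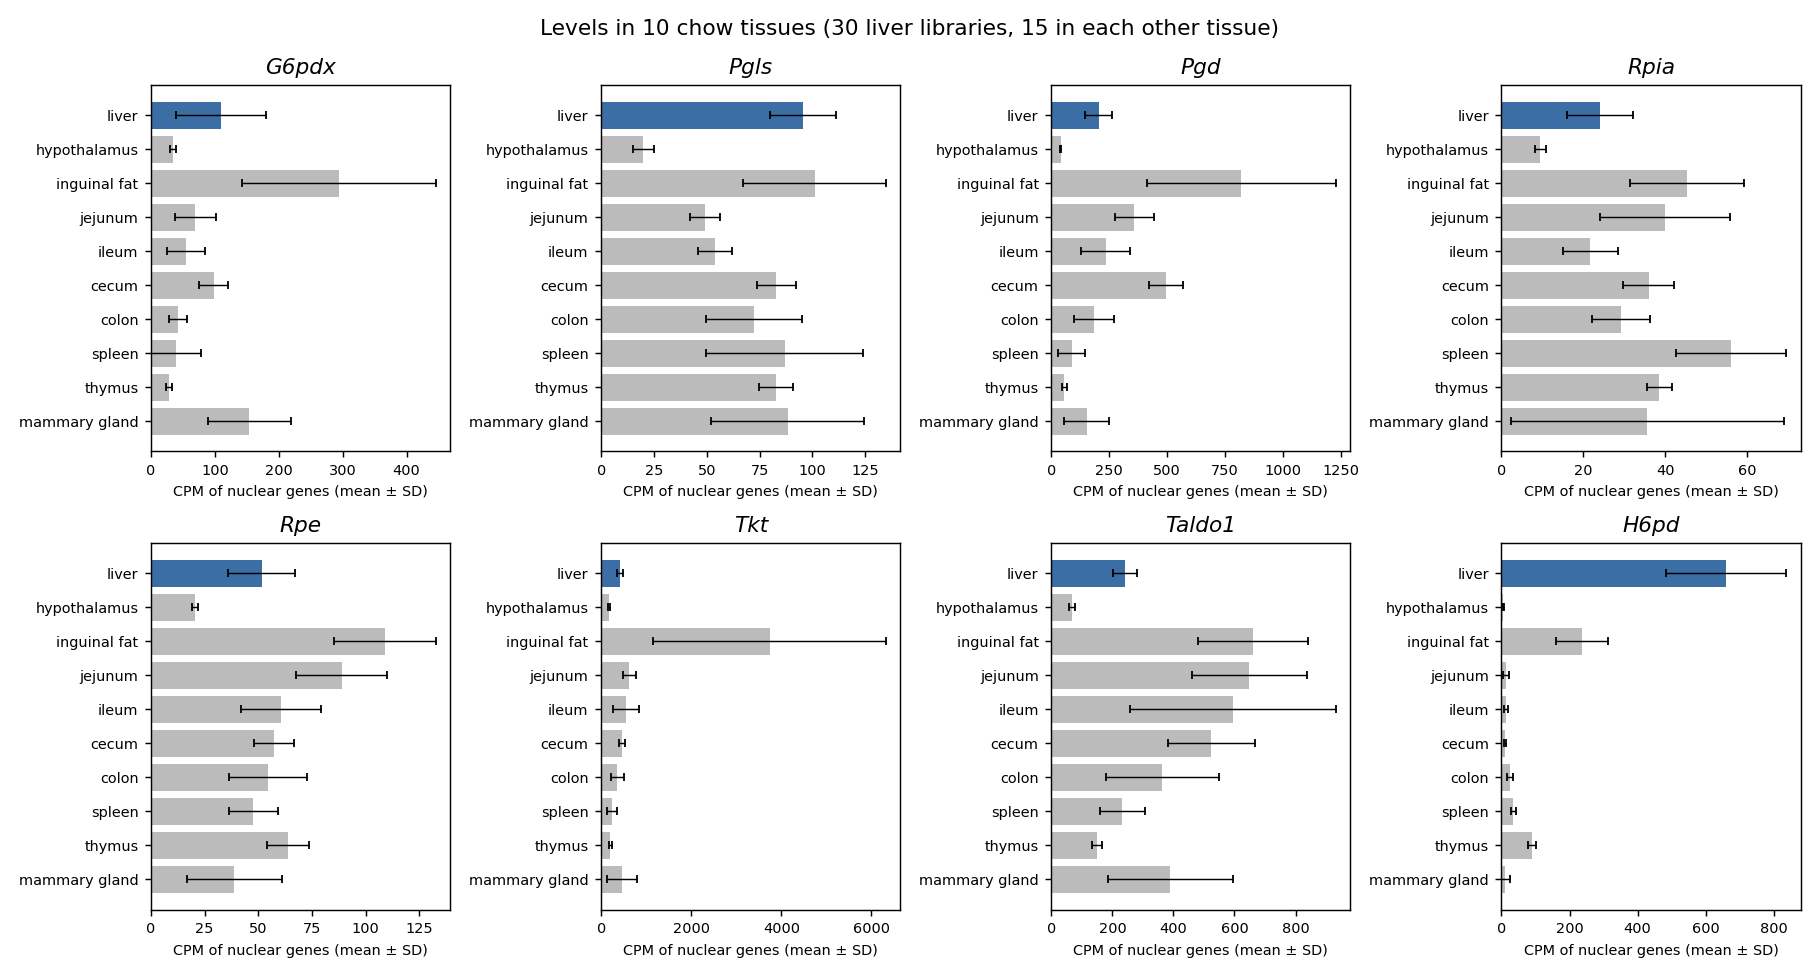
Mean CPM of nuclear genes (horizontal axis, from 0, ± SD) of each gene in 10 chow tissues (30 liver libraries, in blue, and 15 in each other tissue). Tkt reaches 3744 in inguinal fat and 626 in jejunum, its second tissue, and H6pd 661 in liver and 237 in inguinal fat.

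Across the 10 tissue means, the genes whose pattern was most like that of G6pdx were Slc25a1 (r 0.96), C330013E15Rik (0.95) and Abhd5 (0.95). For Tkt they were Pnpla2 (0.97), Lipe (0.96) and Cdsn (0.91), and for H6pd Mrps17 (0.98), Sec31b (0.95) and Atpsckmt (0.94). Lipe, for example, averaged 1239 CPM of nuclear genes in inguinal fat and 171 in jejunum, and Sec31b 12.1 in liver and 4.82 in inguinal fat. Each r rests on 10 points and is a description.

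Light cycle gave 0 calls among the 8 genes in the other chow tissues as well. By edgeR, 0% of all genes were called in hypothalamus, colon, inguinal fat, ileum, jejunum, cecum and thymus, 0.119% in spleen and 0.0215% in mammary gland. At an unadjusted p under 0.05, 3 of the 8 were below in colon (Pgd, Tkt and Taldo1), 2 in spleen (G6pdx and Pgls) and 0 in the other 7 tissues. By the edgeR test, Taldo1 had an adjusted p of 1 in colon (0.00284 unadjusted) and Pgls one of 0.0927 in spleen (0.00089 unadjusted). Without spleen LD12/12 replicate 1, the adjusted p of Pgls was 0.00706 and 8348 genes were called, against 26 with it. The LD12/12 libraries then left, replicates 2 and 3, had 55.2% and 50.9% mitochondrially encoded counts and totals of 40.5 and 27.4 M, while no spleen library of another cycle was above 8.58%, so cycle and RNA quality cannot be told apart in that fit. Without replicate 2 or 3 the adjusted p of Pgls was 0.288 or 0.458. DESeq2, run in hypothalamus and colon, called 0 of the 8 in both. By limma-voom 0 of the 8 were called in 8 of these 9 tissues, and Taldo1 was in mammary gland (adjusted p = 0.0101). With 3 libraries per cycle, small cycle differences in these tissues may have been missed, and the size that could be detected was not tested.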

How the data were processed

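The labels' protocols name TRIzol for RNA extraction and a SMARTER mRNA-Seq kit for the libraries. The submitters' processing notes list StringTie 2.2.1, HISAT2 2.1.0, SAMtools 1.10 and the build GRCm39. The deposited table holds estimated counts per gene, which are whole numbers. Values of 4 were in surplus (146169 cells, against 86362 with 3 and 66707 with 5), so the tests were repeated on values divided by 4. Rows without a gene name (2, at most 0.114% of a library) were left out, and 0 columns were unmatched.

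Each tissue was fitted with edgeR 4.0.16 in R 4.3.3 (TMM, filterByExpr, robust quasi-likelihood, 1 mean per diet and cycle), with Benjamini-Hochberg adjustment over the genes tested in the tissue and a threshold of 0.05. A standard error is the absolute log2 fold change over the square root of F. Within a tissue, CPM uses TMM-scaled library sizes. Across tissues, CPM is of nuclear genes over all chow libraries, per kilobase of merged exons where said, with exons from GENCODE M21. Neighbours in level, ratios and pairs used two-sided permutation tests with 100000 resamples on log2(CPM + 0.5). A library is below the chow mean when it lies under the mean of its cycle's chow libraries. Genes named beyond the 8 were, of each pathway list, the 3 with the smallest p in liver, and those most like G6pdx, Taldo1, Tkt or H6pd by Pearson's r. Naming Mki67 again with its levels, and naming Lipe and Sec31b by level, was chosen after values were seen. So was naming the regulators Mlxipl, Thrsp and Srebf1. The members, lists and tests were chosen with earlier results of these data known.

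One liver library without X chromosome counts and 3 identical cecum columns from 3 cycles were left out, the columns since their group cannot be known. Replicate numbers did not pair libraries (median correlation of same-numbered deviations -0.02 in liver, -0.00 in hypothalamus and -0.01 in colon). The labels do not say that libraries of a group come from separate mice, and p-values then reflect only how much libraries differ. For strand, sex, sampling hour and batch, the sources used here give nothing, and reads of overlapping antisense genes cannot be told apart. Alternatives were limma-voom (limma 3.58.1), DESeq2 1.42.0 and other scalings, filters, covariates and library sets. Simulated counts were used to test the fits.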

Additional observations from a re-analysis of the deposited data

Results flagged for a closer look

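In 80 groups of liver libraries (8 genes, 10 groups), 5 held a library far from the others of its group by Dixon's criterion, which chance gives in about 1 of 20 groups. Antibiotics liver LD24/0 replicate 2 had 12.6 CPM of G6pdx, with the next library at 6.02. Antibiotics liver LD24/0 replicate 6 had 36.7 CPM of Pgls, with the next at 41.4. Antibiotics liver LD8/16 replicate 2 had 14.2 CPM of Rpia, with the next at 7.59. Chow liver LD16/8 replicate 6 was apart in a pair of genes, at 7.84 CPM of Rpe with the next at 28.5, and at 477 CPM of H6pd with the next at 321. It had 2.96% mitochondrially encoded counts.

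The diet difference differed between liver and colon for 4 genes, tested in 1 edgeR fit as liver minus colon on the log2 scale: G6pdx at -2.57 (adjusted p = 6.42e-09), Rpia at -0.66 (adjusted p = 0.0345), Taldo1 at 0.38 (adjusted p = 0.0451) and H6pd at 0.67 (adjusted p = 0.0269). As liver minus hypothalamus it differed for 6 genes: G6pdx at -3.19 (adjusted p = 1.96e-11), Pgls at -0.46 (adjusted p = 0.0185), Pgd at -1.22 (adjusted p = 3.16e-07), Rpia at -1.18 (adjusted p = 0.000171), Tkt at -0.81 (adjusted p = 4.44e-05) and Taldo1 at -0.67 (adjusted p = 0.000427).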

How the results depend on the processing

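Of the 8 genes, 5 to 7 fell in liver with antibiotics under every alternative run (range 5 to 7 with single libraries left out, 7 by DESeq2), and G6pdx, Pgd, Rpia, Tkt and Taldo1 were called in each. Of all genes, 10.4% (no filter) to 20.9% (values divided by 4) were lower in these runs, and 20.1% by DESeq2. With a replicate block, 5 were called in liver (5681 genes in all), 3 in hypothalamus and 2 in colon, where Pgd was lost (adjusted p = 0.0504); no other member's averaged diet call changed. Counts that moved were 1 for chow liver cycles without chow livers over 30% mitochondrial (0 to 1 with single libraries left out, Rpe without chow LD16/8 replicate 6, adjusted p = 0.0432), 5 for hypothalamus with the mitochondrial share as a covariate (Rpia and Tkt added; 3 to 5 with single libraries left out, 5 without chow LD12/12 replicate 3 or LD16/8 replicate 1), 0 for colon with no filter (2 to 4 with single libraries left out), 2 for liver against colon with no filter, 1 for mammary gland cycles by limma-voom, and 0 to 1 for spleen cycles with single libraries left out. Over all genes, calls were then 1098 for chow liver cycles, 8351 for hypothalamus and 649 for colon (57, 3267 and 761 in the main fits). For liver against colon they were 2983 (3327 in the main fit), and for mammary gland cycles 738 (3 in the main fit). With LD12/12 libraries alone, 3 in most tissues, the permutation test of neighbouring tissues could not reach the threshold. Its 0 calls were thus fixed in advance. Neighbouring tissue pairs that differed were 23 in the main test. They were 19 to 28 otherwise. With single libraries left out, members called within cycles were 4 to 5 (LD0/24), 1 to 4 (LD8/16), 2 to 3 (LD12/12), 5 (LD16/8) and 3 (LD24/0). At LD8/16, 236 of all genes were called in the fit with 1 member called, against 482 in the main fit.

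No called value turned its direction. Uncalled log2 fold changes near 0 did: Rpe in liver was 0.05 by limma-voom, 0.06 with the mitochondrial share as a covariate, 0.09 without chow livers over 30% mitochondrial and -0.06 to 0.03 with single libraries left out. G6pdx in hypothalamus was -0.02 with the mitochondrial share as a covariate, and H6pd at LD12/12 was 0.01 with the library total as a covariate. With single libraries left out, G6pdx in hypothalamus ran from -0.00 to 0.06, Rpe from -0.11 to 0.01 at LD8/16 and -0.01 to 0.16 at LD12/12, H6pd from -0.13 to 0.02 at LD8/16 and -0.18 to 0.10 at LD12/12, and Pgls from -0.14 to 0.03 at LD16/8. The causes were not tested.

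Counts over all genes depended on the tool: for chow liver cycles 57 by edgeR, 420 by DESeq2, 3 by limma-voom, 360 with the mitochondrial share as a covariate and 0 with the block, and for the colon diet difference 761 by edgeR and 1729 by DESeq2. DESeq2 was run for liver, hypothalamus and colon. Leaving out single libraries, the mitochondrial covariate and DESeq2 were not run for the differences between tissues. The pairing of numbers was not supported by the data: same-numbered libraries deviated with a median r of -0.02 in liver, against 0.01 for others.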
